A study of Mus musculus with 72 samples.

Results

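Distal IKAROS sites lacking ETS1 were taken from the ChIP-seq peak lists of resting mouse B cells. A site was an IKAROS peak of WT replicate 1 that overlapped a peak of WT replicate 2 by at least 1 bp, lay more than 1000 bp from every protein-coding transcript start (GENCODE vM1 on the mm9 genome) and overlapped no ETS1 peak of either WT library. The rule found 2980 of the 8428 IKAROS sites called in both WT libraries. The remaining sites were 1543 distal sites with ETS1, 2897 promoter sites lacking ETS1 and 1008 promoter sites with ETS1. The sites were thus selected on peak calls in the WT IKAROS and ETS1 libraries, and their WT values are given as a description.

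The study compared chromatin of C57BL/6 WT mice (Hmgn1+/+n2+/+) with that of mice lacking both HMGN1 and HMGN2 (Hmgn1-/-n2-/-, DKO). Splenic B cells labelled as resting were immunoprecipitated with antibodies to IKAROS, ETS1, IRF8, PAX5 and OCT2, in 2 biological replicates per genotype, and the authors called peaks in each library separately. The IKAROS lists held 9102 and 10969 peaks in WT and 5032 and 4838 peaks in DKO. No treatment or age is given in the sources used here, fibroblasts and stem cells served only as a side comparison, and the read depth of each library is unknown. As a check of the label, IKAROS peaks lay at or within 5000 bp of 6 of 6 B cell marker genes in both WT libraries, for example 9, 11, 6 and 7 peaks at Cd79b in WT1, WT2, DKO1 and DKO2. Cd22 had 3 and 4 peaks in WT and 0 in either DKO library. Of the T cell, myeloid, fibroblast and stem cell markers, Cd3d alone had peaks, with 2 and 2 in WT and 1 and 1 in DKO. At the targeted genes, Hmgn1 had 1 IKAROS peak in each of the 4 libraries and Hmgn2 had 1 and 1 in WT and 0 and 0 in DKO, but IKAROS peaks do not check the deletion.

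IKAROS, the product of Ikzf1, is a zinc finger factor that lymphocytes need to develop, and its DNA recognition centres on the letters GGGAA. ETS1 belongs to the ETS family, whose members recognise a GGAA core, and in B cells it restrains differentiation into antibody-secreting cells. IRF8 and PAX5 are regulators of B cell identity, OCT2 binds the octamer found at immunoglobulin genes, and HMGN1 and HMGN2 bind nucleosomes without sequence preference.

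The sequences below show the ground the sites stand on. Each run holds 101 bp centred on the WT1 summit, plus strand of mm9, and capitals mark TGGGAA or its complement TTCCCA, the IKAROS motif searched, which itself contains the ETS core GGAA. Strong sites called in both DKO libraries lay at chr8:72240573-72240673 and chr17:34437948-34438048, both intergenic.
Zfp869: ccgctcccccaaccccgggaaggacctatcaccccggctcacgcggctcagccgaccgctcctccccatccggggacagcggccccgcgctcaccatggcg
H2-Eb1: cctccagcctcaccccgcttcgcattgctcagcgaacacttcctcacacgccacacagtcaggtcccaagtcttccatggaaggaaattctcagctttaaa
The sites with the highest mean WT score among those called in neither DKO library lay at chr11:23668348-23668448 in an intron, chr2:127159285-127159385 between genes and chr11:118070660-118070760 in an intron.
Rel: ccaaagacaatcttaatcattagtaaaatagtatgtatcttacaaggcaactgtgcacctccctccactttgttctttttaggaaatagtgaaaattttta
Dusp2: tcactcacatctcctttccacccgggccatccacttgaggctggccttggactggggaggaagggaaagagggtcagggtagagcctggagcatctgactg
Cyth1: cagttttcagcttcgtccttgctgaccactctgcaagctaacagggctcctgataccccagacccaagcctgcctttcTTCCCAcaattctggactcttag
Ranked instead by the lower of the WT scores, a ranking added after the values were seen, the leading sites called in neither DKO library lay at chr11:44288903-44289003 between genes, chr11:106967852-106967952 in an intron and chr4:135455860-135455960 in an intron.
Ublcp1: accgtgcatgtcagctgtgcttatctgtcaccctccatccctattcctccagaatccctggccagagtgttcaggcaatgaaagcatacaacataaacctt
Bptf: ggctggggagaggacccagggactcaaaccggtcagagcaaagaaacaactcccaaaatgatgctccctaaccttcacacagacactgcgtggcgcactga
Cnr2: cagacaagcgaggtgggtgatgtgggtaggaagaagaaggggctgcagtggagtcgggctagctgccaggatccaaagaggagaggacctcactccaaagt
The strongest sites that also carried an IRF8 peak in both WT libraries lay between genes at chr11:99029120-99029220 and chr16:19153020-19153120.
Ccr7: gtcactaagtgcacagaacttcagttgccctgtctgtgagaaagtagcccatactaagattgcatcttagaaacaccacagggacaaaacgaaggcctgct
Iglc2: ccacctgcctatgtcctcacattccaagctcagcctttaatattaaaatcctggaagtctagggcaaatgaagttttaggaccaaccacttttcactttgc
Of these windows, only that of Cyth1 held TGGGAA, while those of Zfp869 and Dusp2 held GGGAA without the leading T.

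Distal IKAROS peaks lacking ETS1 were fewer in DKO B cells. Peaks were counted in each library's own list, with no condition on a WT IKAROS call, and WT ETS1 peaks defined the class in every library. There were 3352 and 4100 peaks in the WT libraries against 1700 and 1698 in the DKO libraries, and the genotypes did not overlap. The means were 3726 ± 529 and 1699 ± 1.41 peaks (SD, n = 2 libraries), or 37.1% and 34.4% of all IKAROS peaks. In limma fitted over 16 counts (4 antibodies, 4 classes of peaks), the log2 difference was −1.13 (SE 0.28, adjusted p = 0.000529). All 16 counts fell in DKO, so the background of this call was 100%. An exact permutation of 2 libraries against 2 cannot give a p below 0.333, so the call rests on a spread shared by the 16 counts. With an equal number of top peaks per library, the difference turned to 0.24 (limma adjusted p = 0.0997).

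The fall was close to that of the other IKAROS classes. Distal peaks with ETS1 numbered 1622 and 1880 in WT against 760 and 750 in DKO, a log2 difference of −1.21. Promoter peaks fell by 0.88 without ETS1 and by 0.85 with ETS1 on the log2 scale. Tested as a ratio of classes within each library, the change of distal peaks lacking ETS1 differed from that of distal peaks with ETS1 by 0.08 (log2, SE 0.13, limma adjusted p = 0.610) and from that of promoter peaks lacking ETS1 by −0.25 (SE 0.14, limma adjusted p = 0.259). Of the 12 class differences over the 4 antibodies, limma called 0, a background of 0%, and 2 had an unadjusted p under 0.05, none of them for IKAROS. With replicate numbers crossed as a block, limma called the IRF8 difference from promoter peaks with ETS1 (limma adjusted p = 0.0118). It then also called the PAX5 differences from promoter peaks with and lacking ETS1 (limma adjusted p = 0.0118 for each), and none for IKAROS. The IKAROS comparison depended on how ETS1 overlap was defined. With the 1000 bp around each ETS1 peak counted as ETS1, the distal peaks lacking ETS1 fell further than distal peaks with ETS1, by −0.70 (limma adjusted p = 0.0181), and further than promoter peaks lacking it, by −0.61 (limma adjusted p = 0.0208). Of the 12 class differences limma then called 6, a background of 50%. With the same number of top peaks taken from each library, the first of these differences was instead 0.75 (limma adjusted p = 0.0299), against a background of 4 of 12 called, or 33.3%.

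**Figure D1:**
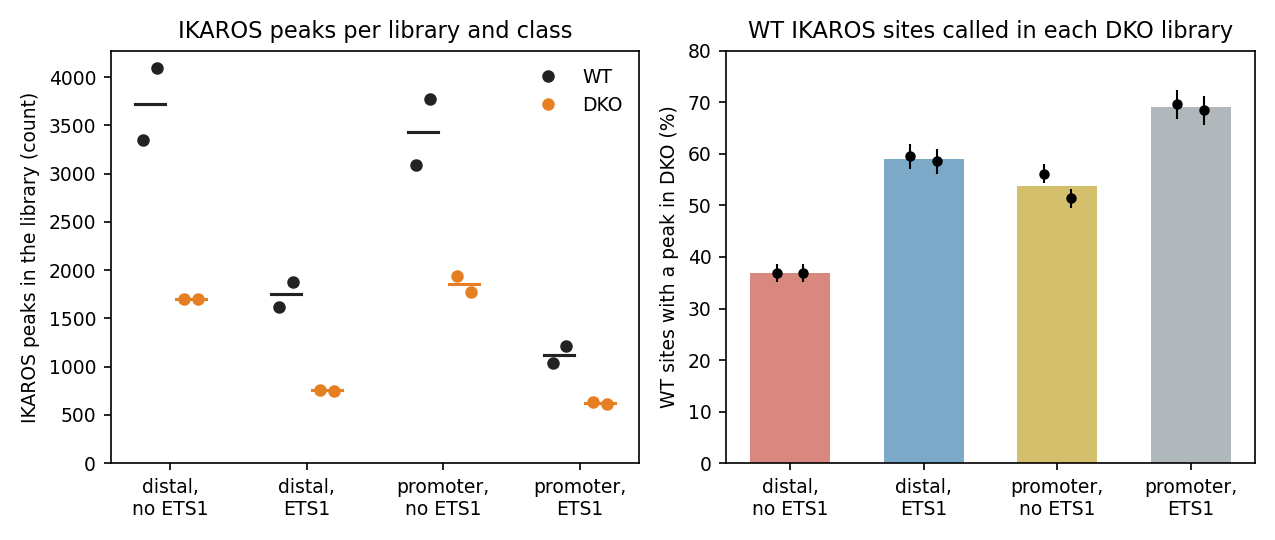
Left, number of IKAROS peaks in each library by class, with points for the 2 WT and 2 DKO libraries and lines for their means. Right, percent of the sites called in both WT libraries that overlap a peak of each DKO library, with points for DKO replicates 1 and 2, Wilson 95% intervals and bars for the mean; distal sites lacking ETS1 stand lowest at 36.8% and 36.9%.

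Of the 2980 sites, 1098 (36.8%, Wilson 95% interval 35.1 to 38.6) overlapped an IKAROS peak of DKO replicate 1 and 1101 (36.9%, 35.2 to 38.7) one of DKO replicate 2. Over all 8428 IKAROS sites these shares were 51.6% and 49.6%. Both DKO libraries called 910 sites (30.5%, against 44.4% of all sites), exactly 1 called 379 (12.7%) and neither called 1691 (56.7%, against 43.2% of all sites). Distal sites with ETS1 were called in 59.6% and 58.6%, promoter sites lacking ETS1 in 56.2% and 51.4%, and promoter sites with ETS1 in 69.6% and 68.5%. Distal sites lacking ETS1 thus had the lowest share of the 4 classes in both DKO libraries. With an equal number of top peaks taken from each library the shares came closer, at 79.2% for distal sites lacking ETS1, 86.0% for distal sites with ETS1, 83.4% for promoter sites lacking ETS1 and 85.4% for promoter sites with ETS1. The intervals cover counting error only, and since WT calls chose the sites these shares carry no test. When overlap required the summit of a peak to lie inside the other peak, the order of the distal classes turned, with 43.2% of 4008 sites lacking ETS1 and 38.4% of 383 sites with ETS1. The WT replicates themselves were unequal. Of the 3352 distal peaks lacking ETS1 in WT1, 88.9% were found in WT2 and 33.0% in either DKO library, whereas of the 4100 in WT2, 63.3% were found in WT1 and 23.5% and 24.0% in DKO. In the other direction, 95.9% to 98.1% of such DKO peaks were found in a WT library and 81.4% to 81.5% in the other DKO library.

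The low share moved with the strength of the sites. Median fold enrichment, the ratio of the pileup at the summit to the local background as given by the authors, was 6.28 in WT1 and 6.97 in WT2 for distal sites lacking ETS1. The median of the WT mean was 6.74, below the 9.29 of distal sites with ETS1, the 8.66 of promoter sites lacking ETS1 and the 11.7 of promoter sites with ETS1. All IKAROS sites were divided into 5 classes of equal size by the mean WT −log10 p, and 31.3% of distal sites lacking ETS1 fell in the weakest class and 9.56% in the strongest, against 12.8% and 26.9% of distal sites with ETS1. From the weakest to the strongest class, the mean share called in DKO was 7.07%, 18.98%, 49.4%, 77.0% and 87.5% for distal sites lacking ETS1. Distal sites with ETS1 of the same classes gave 5.08%, 17.7%, 48.3%, 84.0% and 98.3%. The distal classes were thus within 2 percentage points of each other in the 3 weakest classes, and sites lacking ETS1 were lower in the 2 strongest. Ranked by the WT1 score alone, the fourth class turned, with 81.6% without and 78.9% with ETS1, and the strongest class gave 98.7% and 99.1%.

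**Figure D2:**
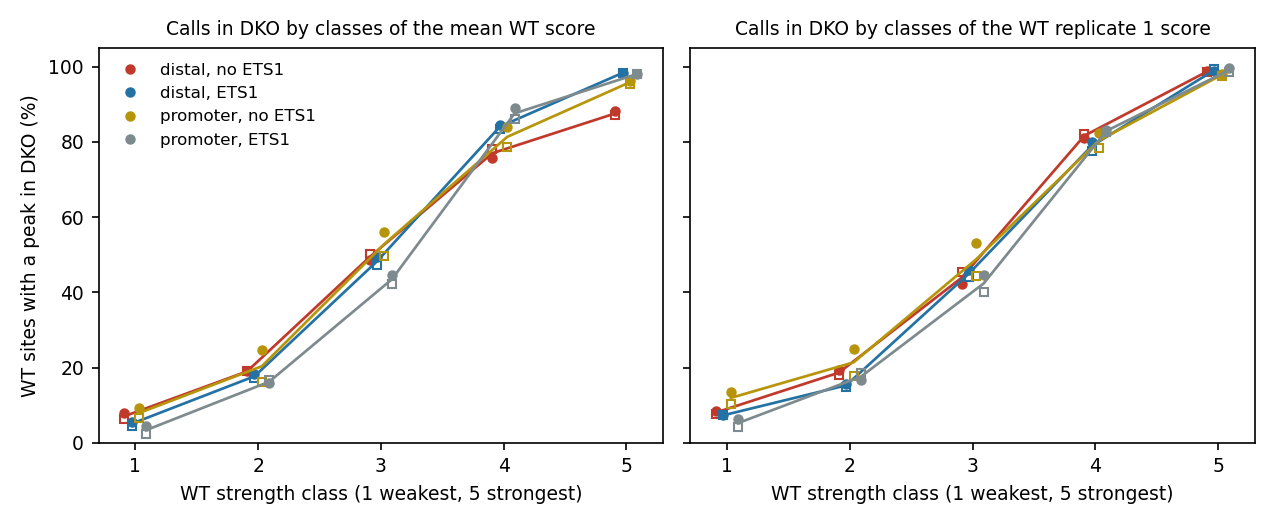
Percent of WT IKAROS sites called in DKO (vertical axis) by class of WT strength (horizontal axis, 1 weakest to 5 strongest), ranked by the mean WT −log10 p (left) or the WT1 −log10 p alone (right). Filled circles are DKO replicate 1, open squares DKO replicate 2 and lines their mean; the 87.5% of distal sites lacking ETS1 in the left strongest class becomes 98.7% on the right.

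The gap in the strongest class moved with the width of WT2 peaks. The 2980 sites overlapped 2868 distinct WT2 peaks, so some shared 1 broad WT2 peak and took its score. In 495 sites (16.6%) no WT2 summit lay inside the site, and there the WT2 peak had a median width of 797 bp against 226 bp for the site. These were called in DKO in 20.8%, against 40.1% of the 2485 sites that held a WT2 summit. Of the 31 sites of the strongest class called in neither DKO library, 28 held no WT2 summit, and their median −log10 q was 7.61 in WT1 and 136 in WT2. The Rel site, near the gene of an NF-kB subunit, showed this pattern with fold enrichments of 5.04 in WT1 and 48.6 in WT2. The Dusp2 site (MAP kinase phosphatase) had 5.33 and 47.8, and the Cyth1 site (a guanine nucleotide exchange factor of ARF proteins) had 3.81 and 38.7. The other sites of this ranking, near Cyth1 again, Lcp1, H2-Eb1, Dad1 and Rhof, also held no WT2 summit. In WT1 their fold enrichment was 3.14 to 7.43.

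Strong sites called in both DKO libraries had lower fold enrichment in DKO. At the intergenic site 6000 bp from the Zfp869 start (chr8:72240437-72240831), fold enrichment was 38.6 and 36.9 in WT and 19.2 and 17.5 in DKO. Near H2-Eb1 (chr17:34437508-34438171), a β chain of MHC class II, the values were 38.5 and 35.0 in WT and 12.6 and 11.5 in DKO. At both sites every WT value stood above every DKO value. The log2 differences were −1.04 (SE 0.18) for Zfp869 and −1.61 (SE 0.19) for H2-Eb1. Sites named for their WT strength were chosen on the WT values that enter these differences, which favours a lower DKO value, so their differences are descriptions with no test. A further 5 sites, near Nfatc3, Mreg, Chd2 and at 2 places near Chst3, had 22.6 to 45.7 in WT and 11.4 to 22.4 in DKO. The Mreg site overlapped the start of a noncoding transcript.

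Of the 910 distal sites lacking ETS1 called in both DKO libraries, fold enrichment fell at 655 and rose at 4 (limma over the 3742 IKAROS sites called in all 4 libraries, adjusted p under 0.05), with a median log2 difference of −0.88. Over all 3742 sites tested, 77.4% fell and 0.214% rose, with a median of −0.92, so the sites lacking ETS1 were close to the background. All of them were chosen on WT calls, so these counts are read only beside that background. Sites that overlapped the same peak of a library shared its value, so they are not all separate measurements. Relative to the median of all sites, 28 of the 910 fell and 75 rose, with a median of 0.05. Over all 3742 sites, 160 (4.28%) fell and 231 (6.17%) rose. Of the 830 distal sites with ETS1, 59 fell and 34 rose on that scale. Without centring, 712 of those 830 fell, with a median of −1.04. A site had to be called in DKO to be tested in both libraries, and a site without a peak has no DKO value. Weak sites were thus left out, since the median WT fold enrichment was 10.3 for sites called in both DKO libraries, 6.96 in 1 and 5.74 in neither.

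The ends of the ranking held the few sites that rose and the largest falls. The Zc3h12a site (chr4:124802352-124802923), near the gene of an RNase that degrades inflammatory mRNAs, had fold enrichments of 6.19 and 7.18 in WT and 12.8 and 11.9 in DKO. The log2 difference was 0.89 (SE 0.19). The Irs2 site (chr8:11138548-11138775), near an insulin receptor substrate, had 3.80 and 3.64 in WT and 8.60 and 6.85 in DKO, a log2 difference of 1.05 (SE 0.20). The others that rose lay nearest to Zmym5 and Gm5507. The largest fall was near Sash3, a lymphocyte adaptor, with 12.8 and 27.2 in WT and 3.20 and 3.30 in DKO (a log2 difference of −2.52, SE 0.33). Next came a site near Tmsb4x, an actin-sequestering peptide, with 15.9 and 24.4 in WT and 3.75 and 4.73 in DKO. These sites were named after their values were seen, and their differences are descriptions.

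**Figure D3:**
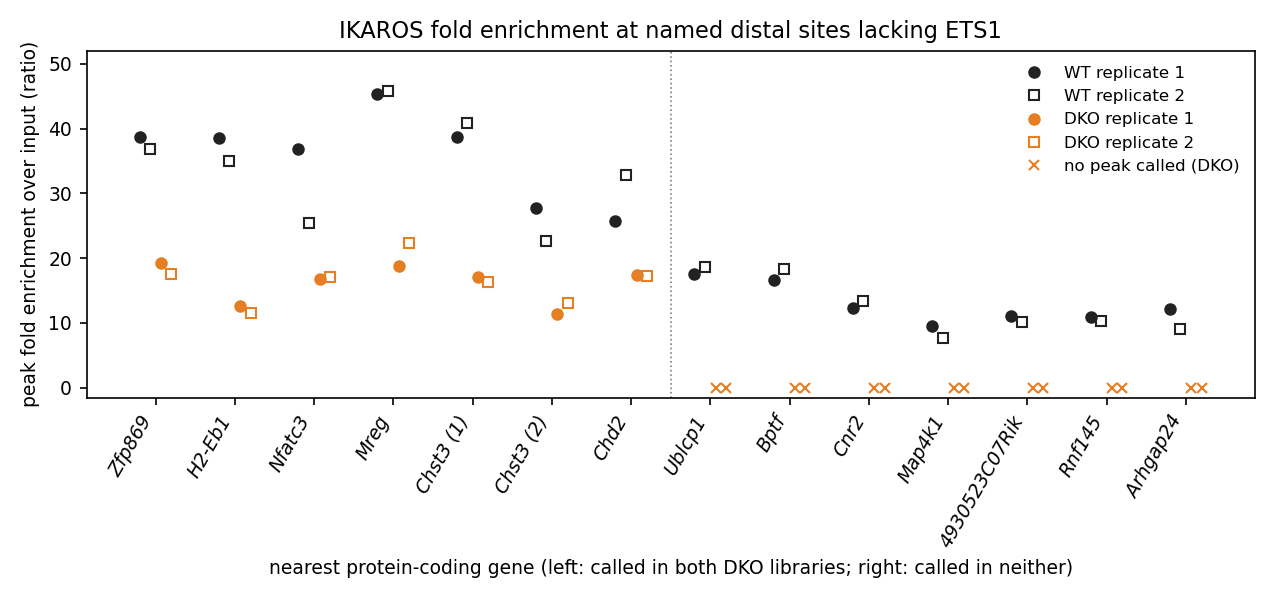
Fold enrichment (vertical axis, ratio over local background) in the 2 WT and 2 DKO libraries at distal sites lacking ETS1, named by the nearest protein-coding gene. Left of the dotted line are 7 strong sites called in both DKO libraries, all with DKO values below the WT values; right of it, crosses at the foot mark sites that neither DKO library called, which have no DKO value.

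Sites that were strong in both WT libraries and called in neither DKO library were led by an intergenic site 4953 bp from the start of Ublcp1, a proteasome phosphatase. It had fold enrichments of 17.5 and 18.6 in WT (chr11:44288521-44289099). An intronic site of Bptf, a subunit of the NURF remodeller, had 16.6 and 18.3 (chr11:106967458-106968049). An intronic site of Cnr2, the cannabinoid receptor of B cells, had 12.2 and 13.4 (chr4:135455786-135456045), while a neighbouring Cnr2 site (chr4:135454087-135454422) had 15.3 and 14.3 in WT and 6.60 and 6.24 in DKO. The next were near Map4k1, 4930523C07Rik, Rnf145 and Arhgap24, with WT values between 7.73 and 12.1. Several stood beside ETS1 without touching it, since a WT ETS1 peak lay 21 bp from the Ublcp1 site, 8 bp from the Cnr2 site, 26 bp from the Map4k1 site, 47 bp from the Rnf145 site and 75 bp from the Arhgap24 site. The Bptf site was 3337 bp from the nearest one. No peak in a DKO list means that the site did not pass the caller's threshold there, not that IKAROS was absent.

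Few IKAROS sites were found in DKO alone. Both DKO libraries shared 1385 distal peaks lacking ETS1, of which 1356 lay on a peak in both WT libraries, 15 in 1 and 14 (1.01%) in neither. Of the 682 distal DKO peaks with ETS1, 0 lacked a WT peak in both WT libraries. Among the 14 were sites nearest to Arid1b (fold enrichments 11.6 and 14.1 in DKO), Plxdc2 (10.9 and 12.2) and Csda (11.8 and 10.4).

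Lack of overlap did not mean that ETS1 was far away. Of the 2980 sites, 1248 (41.9%) had a WT ETS1 peak within 1000 bp and 890 within 250 bp, and the median distance was 1902.5 bp. Sites with ETS1 within 1000 bp were called in DKO in 39.6% and those without in 35.0%, but the order turned in the fourth class of strength. From the weakest to the strongest class, sites with ETS1 within 1000 bp gave 8.22%, 20.4%, 51.3%, 74.8% and 89.4%. Those without gave 6.37%, 17.9%, 47.9%, 78.9% and 86.1%. The 890 within 250 bp of an ETS1 peak had a median WT fold enrichment of 6.99 and were called in 43.5%. Just across the rule, the 698 distal sites that overlapped ETS1 by 100 bp or less had 8.76 and 55.7%. At the promoter limit, the 98 sites within 250 bp beyond the limit of 1000 bp had a median of 6.87 and were called in 42.3%, and the 119 sites lacking ETS1 within 250 bp on its other side had 7.08 and 38.7%. ETS1 peaks of DKO cells overlapped 8 of the 2980 sites (0.268%) and 8 of the 2897 promoter sites lacking ETS1 (0.276%). Both classes exclude WT ETS1 peaks, so a low share was largely set by the rule. The share was 8.4% over all IKAROS sites and 32.1% over distal sites with ETS1, where the rule itself required a WT ETS1 peak.

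IRF8 and PAX5 peaks were rarer at distal IKAROS sites lacking ETS1 than at those with ETS1. The sites lacking ETS1 were also narrower, with a median width of 295 bp against 469 bp. The part of width in these shares was not tested. IRF8 peaks of WT replicates 1 and 2 overlapped 41 and 48 of the 2980 sites (1.38% and 1.61%) and 11.8% and 11.1% of distal sites with ETS1. Counting either WT library, 59 sites (1.98%) carried IRF8, against 4.19% of all IKAROS sites and 13.7% of distal sites with ETS1, and 30 carried it in both. Promoter sites lacking ETS1 had IRF8 in 0.725%, PAX5 in 0.449% and OCT2 in 0.380%. A low IRF8 share was thus not particular to distal sites lacking ETS1. Where the summit of a peak had to lie inside the other peak, the share of distal sites lacking ETS1 was 0.225% of 4008 for IRF8, 0.0250% for PAX5 and 0.274% for OCT2. For IRF8 the shares did not overlap across the classes of IKAROS strength, with 1.18% to 3.16% of sites lacking ETS1 and 12.5% to 15.7% of sites with ETS1. PAX5 overlapped 3 sites (0.101%), 0 of them in both WT libraries, against 1.63% of all IKAROS sites and 5.90% of distal sites with ETS1. OCT2 overlapped 13 (0.436%), against 0.534% and 1.04%. At matched strength OCT2 did not keep this order, since the fourth class had 1.07% without and 0.826% with ETS1 and the strongest 1.40% and 1.205%. The WT lists held 886 and 868 IRF8 peaks, 231 and 280 PAX5 peaks and 72 and 65 OCT2 peaks, which limits how many sites could carry one. No site carried all 3 factors, 1 carried IRF8 with PAX5, and 2906 carried none. These are shares of sites within libraries and carry no test.

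In DKO the overlaps were fewer at IKAROS sites of all kinds, at 1.22% for IRF8, 0.154% for PAX5 and 0.119% for OCT2 over the 8428 sites. The DKO lists were short, with 370 and 284 IRF8 peaks, 28 and 34 PAX5 peaks and 10 and 18 OCT2 peaks. IRF8 peaks of DKO replicates 1 and 2 overlapped 6 and 10 sites, 12 in all, and all 12 also carried IRF8 in WT. PAX5 overlapped 0 sites in either DKO library, which allows a share of up to 0.101%, and OCT2 overlapped 2. Counted in the own lists, distal peaks lacking ETS1 fell in DKO for each of these factors, by 1.23 for IRF8 (SE 0.29, limma adjusted p = 0.000295), 2.75 for PAX5 (SE 0.29, limma adjusted p = 5.45e-09) and 2.20 for OCT2 (SE 0.31, limma adjusted p = 5.55e-07) on the log2 scale. The whole lists shortened with them, and this class made up 37.1% of IRF8 peaks in WT and 42.6% in DKO, 16.3% and 17.4% of PAX5 peaks and 36.4% and 34.4% of OCT2 peaks. With an equal number of top peaks per library, the differences were 0.13 for IRF8 (limma adjusted p = 0.215), 0.95 for PAX5 (limma adjusted p = 0.0302) and −0.10 for OCT2 (limma adjusted p = 0.473).

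**Figure D4:**
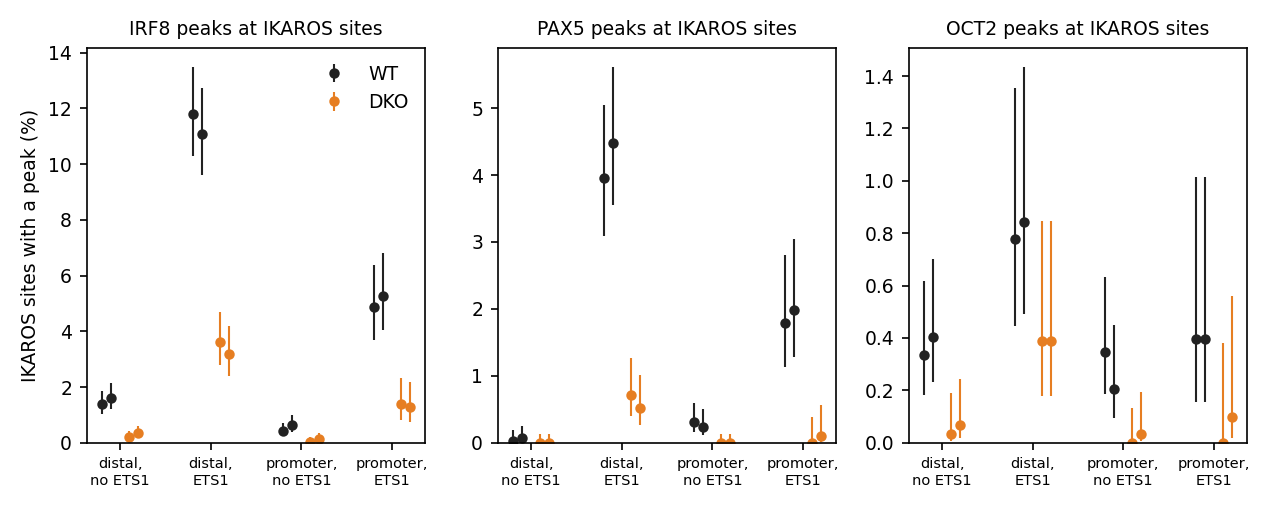
Percent of IKAROS sites of each class that overlap an IRF8, PAX5 or OCT2 peak in each WT (black) and DKO (orange) library, with Wilson 95% intervals. Scales differ between panels; IRF8 reaches 11.8% at distal sites with ETS1 and 1.61% at those lacking it.

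The share of sites called in DKO differed in both directions with and without IRF8 once strength was matched. Of the 59 sites with IRF8, 42.4% and 39.0% were called in the DKO libraries, against 36.7% and 36.9% of the 2921 without, and their median −log10 q in WT was 18.5 against 14.8. From the weakest to the strongest class, sites with IRF8 were called in 0%, 3.33%, 33.3%, 91.7% and 94.4%, and sites without it in 7.15%, 19.3%, 49.7%, 76.6% and 87.3%. Each class held only 9 to 15 sites with IRF8. With an equal number of top peaks per library the pooled order turned, with 66.7% called with IRF8 and 79.4% without. The 3 sites with PAX5 were called in both DKO libraries, and of the 13 with OCT2, 4 were called in both and 7 in neither. At Ccr7 (chr11:99028069-99029366), the chemokine receptor that guides lymphocytes to lymph nodes, IKAROS fold enrichment was 32.2 and 35.5 in WT and 8.75 and 9.48 in DKO. IRF8 there was 10.1 and 6.73 in WT and not called in DKO. The site near Iglc2 (chr16:19152910-19154022), an immunoglobulin λ constant gene, had IKAROS values of 35.5 and 26.9 in WT and 9.79 and 9.68 in DKO. It also carried IRF8 at 15.1 and 10.9 in WT and 5.76 in DKO replicate 2, and PAX5 at 7.11 in WT replicate 2. An intronic site of Pax5 itself (chr4:44684160-44684549) had IKAROS values of 13.1 and 13.2 in WT and 7.40 and 6.29 in DKO, with IRF8 at 15.4 and 13.9 in WT and 14.1 and 9.25 in DKO. The IKAROS log2 differences were −1.89 (SE 0.19) at Ccr7, −1.67 (SE 0.21) at Iglc2 and −0.95 (SE 0.19) at Pax5. Among sites with OCT2, the one near Arhgap5 had OCT2 values of 12.1 and 13.1 in WT and 7.33 and 4.57 in DKO, while the one near Wdr5 had 8.04 and 7.32 in WT and none in DKO.

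The sites were spread over introns and intergenic DNA. By the annotation 1450 (48.7%) had their summit in an intron, 99 (3.32%) in an exon and 1431 (48.0%) between genes, and they were called in DKO in 34.7%, 33.8% and 39.3%. The median distance from summit to the nearest protein-coding start was 15607 bp. In 4 groups of increasing distance, the share called was 33.8% in the nearest and 38.4% in the farthest. Of all these sites, 254 (8.52%) lay within 1000 bp of a start of some noncoding transcript. Chromosome Y held 0 sites, and the other chromosomes from 66 (18 and X) to 246 (1), with 32.1% to 49.0% called.

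Many sites lay in clusters. With a gap of at most 12500 bp between summits, 93 clusters of 5 or more held 611 sites, 1476 lay in groups of 2 to 4 and 893 stood alone. The mean share called in DKO was 45.9%, 38.8% and 27.7%, and the median −log10 q moved with it, at 19.3, 15.9 and 11.6. Within classes of strength the shares lay closer, at 7.43%, 7.37% and 6.59% in the weakest and 86.6%, 89.1% and 85.2% in the strongest. They stood furthest apart in the second class, at 25.6%, 18.2% and 16.5%. The largest cluster held 15 sites over 44028 bp (chr6:70671057-70715084). Its nearest protein-coding gene is Rpia, but Igkc, the immunoglobulin κ constant gene, lies inside it and is not of the protein-coding type in the annotation. Of its sites 4 were called in both DKO libraries, 1 in 1 and 10 in neither. The strongest (chr6:70692917-70693997) had fold enrichments of 18.96 and 18.6 in WT and 6.15 and 5.81 in DKO, and the site that reaches into Igkc (chr6:70672537-70676534) had 17.4 and 18.2 in WT and 9.22 and 7.39 in DKO. The 10 called in neither had 4.18 to 5.71 in WT1 and 4.97 to 10.5 in WT2.

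At the MHC class II genes H2-Eb1 and H2-Aa, 12 sites spanned chr17:34422790-34445497, with 7 called in both DKO libraries and 4 in neither. At Ccr7, 7 of 9 sites were called in both (chr11:99011462-99032988), with WT fold enrichments of 8.54 to 35.5 and DKO values of 5.33 to 9.48. At Fcrla, an intracellular Fc receptor-like protein of B cells, only 3 of 11 were called in both, and the 8 others had 4.01 to 8.71 in WT and were called in neither. In a cluster of 7 upstream of Ets1 (chr9:32416666-32425902), the gene of the factor whose peaks the rule left out, 5 were called in both and 2 in 1. The strongest of them by score had 17.9 and 18.9 in WT and 13.9 and 13.1 in DKO, a log2 difference of −0.45 (SE 0.18).

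The genes with most sites included regulators of B cells. The nearest protein-coding genes numbered 1309, or 5.89% of the 22232 annotated. Foxp1, a forkhead factor of B cell development, was nearest to 26 sites, of which 9 were called in both DKO libraries, 2 in 1 and 15 in neither. Ets1 was nearest to 25 (9, 3 and 13), Rpia to 17 (4, 1 and 12), Cyth1 to 16 (4, 2 and 10), Bach2 to 15 (7, 3 and 5), Tmsb4x to 15 (9, 0 and 6), Mef2c to 15 (3, 2 and 10) and Iglc2 to 14 (5, 2 and 7). At the genes just listed, in that order, distal sites with ETS1 numbered 10, 4, 1, 0, 2, 6, 8 and 1. Bach2 represses the plasma cell programme and Mef2c responds to B cell receptor signals. The nearest gene is a label for position, and expression was not analysed here.

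**Figure D5:**
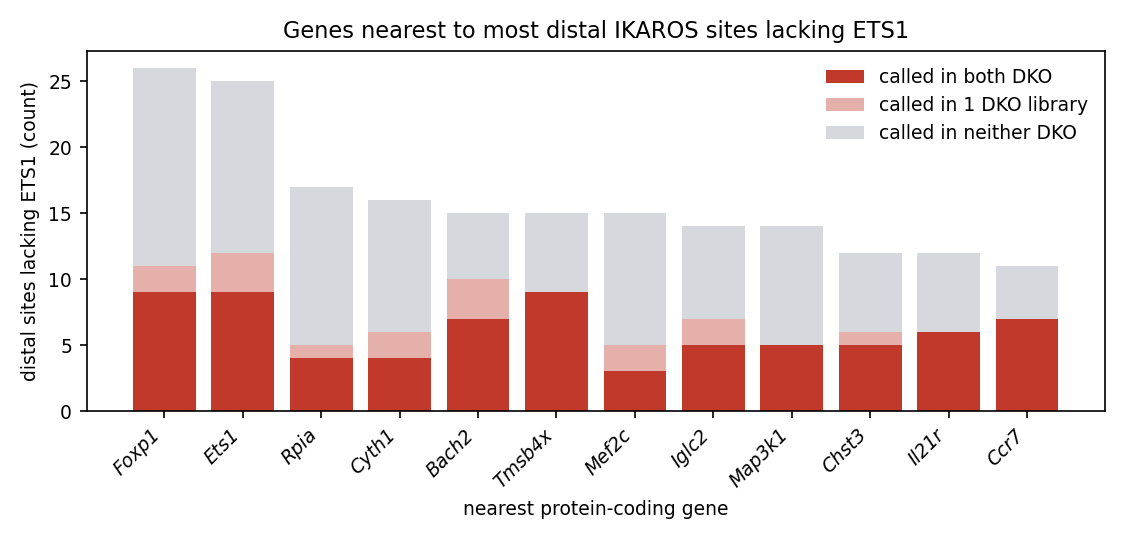
Number of distal IKAROS sites lacking ETS1 (vertical axis) by nearest protein-coding gene, for the 12 genes with most sites, split by whether both, 1 or neither DKO library called them. Foxp1 leads with 26 sites and 9 called in both; Ccr7 has 7 of 11 called in both.

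Sites near lists of B cell genes were called in DKO to different extents. The B cell transcription factor list had 16 of 23 annotated genes nearest to a site, with 100 sites of which 30 were called in both DKO libraries, 19 in 1 and 51 in neither (39.5% called on average, against 36.9% of all 2980). Ebf1, which specifies the B lineage with PAX5, had 11 sites with 1 called in both and 8 in neither, and Pax5 had 11 with 3 and 7. The B cell receptor signalling list had 22 of 24 genes and 73 sites, with 19 called in both and 45 in neither (32.2%). Lyn, the kinase next to the receptor, had 3 of 7 called in both, and Inpp5d, the SHIP1 phosphatase, 1 of 9. A Prkcb intronic site had 29.8 and 36.8 in WT and 20.6 and 18.8 in DKO (chr7:129453087-129454373), a log2 difference of −0.75 (SE 0.20).

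The homing and adhesion list had 12 of 15 genes and 51 sites, 22 called in both and 22 in neither (50% called). S1pr1, the receptor that lets lymphocytes leave lymphoid organs, had 4 of 10 called in both, and Cnr2 had 5 of 8. The antigen presentation list had 9 of 16 genes and 31 sites, with 16 called in both and 10 in neither (59.7%), and its median −log10 q of 49.8 stood above the 14.9 of all sites. Among its genes were H2-Eb1 with 5 of 9 called in both, H2-Ab1 with 3 of 5, H2-Aa with 2 of 3 and Cd83, a costimulatory surface protein, with 5 of 8. The site near Cd83 (chr13:43860878-43862467) had 17.4 and 19.8 in WT and 11.1 and 13.9 in DKO, a log2 difference of −0.58 (SE 0.20). Of the lists of other cells, precursor B cell genes had 1 of 10 nearest to a site (Cd93), T cell genes 2 of 12 (Lck and Cd3d) and myeloid genes 1 of 9 (Csf2ra), each with 1 site, or 10%, 16.7% and 11.1% of genes against 5.89% of all protein-coding genes.

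The neighbourhood of Ebf1, chosen after its values were seen, held the Ublcp1 and Rnf145 sites named above. Over 642 kb of chromosome 11, 23 distal sites lacking ETS1 were nearest to Ublcp1, Rnf145 or Ebf1, with 2 called in both DKO libraries, 4 in 1 and 17 in neither, where over the 2980 sites 30.5% were called in both and 56.7% in neither. Some that neither library called were as strong in WT as some that both called. The site at chr11:44389861-44390206 had 10.7 and 6.97 in WT and no DKO peak, and the one at chr11:44339794-44340171 had 7.94 and 6.52 in WT and 3.69 and 4.91 in DKO. Of the 6 distal sites with ETS1 there, 2 were called in both and 3 in neither.

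The DNA at the summits held few of the motifs searched. TGGGAA lay within 50 bp of the summit on either strand in 360 of the 2980 sites (12.1%), against 9.68% of positions 5000 bp to each side and 11.9% of distal sites with ETS1. AGGAAG, an ETS sequence, was in 13.7% (12.5% at the flanking positions), whereas distal sites with ETS1 had it in 19.6% (13.9% at theirs). GAGGAAGT, the PU.1 form, was in 0.638% against 2.59% of distal sites with ETS1, and the ETS-IRF composite element in 1.28% against 2.01%. AGGAAG lies inside GAGGAAGT, so these are not separate counts. The summit windows were richer in GC than the flanking positions, at 48.5% against 45.6% for distal sites lacking ETS1 and 49.3% against 46.0% for those with ETS1, and the part of base composition in the motif shares was not tested. ATGCAAAT, the octamer, was in 0.235% (0.570% at the flanking positions) and CCACCC, bound by KLF and SP factors, in 9.30% (7.57%). As a check of the search, AGGGGGC, part of the CTCF motif, was found at 14.1% of 62069 CTCF summits of stem cells and 1.15% of positions beside them. Sites with TGGGAA were called in DKO in 36.9% and those without in 36.9%, and AGGAAG was in 11.6% of sites called in both DKO libraries and 14.8% of those called in neither. These shares are descriptions of letters, with no test.

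Acetylation in B cells was not analysed here, but H3K27ac lists of fibroblasts gave a side view. Peaks of the 4 fibroblast libraries overlapped 21.1% to 22.5% of distal IKAROS sites lacking ETS1, about as many as of distal sites with ETS1 (21.9% to 22.9%), and 86.3% to 86.5% of promoter sites lacking ETS1. Among sites called in both DKO libraries the share was 25.9% to 27.5%, and among those called in neither 18.6% to 19.9%. Stem cell CTCF peaks overlapped 3.15% to 3.69%.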

How the data were processed

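Per the labels and the study's methods, reads were trimmed with cutadapt 1.16, aligned to mm9 with BWA, marked for duplicates and filtered for blacklisted regions, and the authors called peaks in each library with MACS2 2.1.1.20160309 against input DNA. The deposited columns used were fold enrichment, a ratio at the summit, and −log10 p and −log10 q of each peak, as the authors' caller wrote them. In WT2 and the DKO libraries, a site took the highest value of the peaks that overlapped it. The summit of such a peak could lie outside the site, and neighbouring sites could share a value. Reads per library were not analysed here, so depth is unknown and the Wilson intervals cover counting error over sites only.

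Overlaps of at least 1 bp were counted with Python 3.11.15 (numpy 2.4.6, pandas 2.3.3). Peaks per class (log2 of count + 1) and log2 fold enrichment of sites called in all 4 libraries were compared with limma 3.58.1 in R 4.3.3 with Benjamini-Hochberg adjustment over all rows of each table at a threshold of 0.05, and the fit was tested on simulated data. Replicates are labelled biological, and their numbers did not pair the samples. Named sites were the 8 highest by mean WT −log10 q called in both and in neither DKO library, the strongest site of up to 4 genes per gene list and of the 8 genes nearest to most sites; sites with IRF8, OCT2 or PAX5, those that rose or fell most and clusters were added after their values were seen. The sites and gene lists were chosen with earlier results of these data known. A few of the named sites are not reported here.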

Additional observations from a re-analysis of the deposited data

How the results depend on the processing

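The fall in the number of distal IKAROS peaks lacking ETS1 kept its direction and call in 11 of 12 alternatives. It turned to 0.24 (log2, limma adjusted p = 0.0997) with an equal number of top peaks per library, which makes the lists equally long by construction, and ranged from −1.27 to −0.98 with 1 library left out. With a replicate block the adjusted p was 0.0133, and 0.000927 with the numbers crossed. The replicate block left the difference from distal peaks with ETS1 at an adjusted p of 0.720 and from promoter peaks lacking ETS1 at 0.406. Deviations of same-numbered libraries correlated at −0.0638 over 3742 sites and −0.559 over 16 counts, so the numbers did not pair the samples. With 1 library left out these differences ranged from 0.04 to 0.12 and from −0.31 to −0.18. They were −0.70 and −0.61 without ETS1 within 1000 bp, and 0.75 and 0.30 with an equal number of top peaks. The cause was not tested. Sites that fell numbered 28 after centring, 1180 with the summit rule, 360 without ETS1 within 1000 bp, 544 to 603 with 1 library left out, 674 with the replicate block and 688 crossed. Sites that rose numbered 75 after centring, 1 at a WT fold enrichment of at least 6, 1 with an equal number of top peaks, 3 to 7 with 1 library left out (7 without WT replicate 1 or 2), 6 with the block and 5 crossed. The share of sites lacking ETS1 that DKO libraries called, on average 36.9%, was 37.7% at a −log10 q of at least 4, 37.7% for distal beyond 5000 bp, 43.2% with the summit rule, 35.0% without ETS1 within 1000 bp, 79.2% with an equal number of top peaks, 36.8% on the autosomes, 30.5% counting both DKO libraries, 43.3% counting at least 1, 40.1% where the site held the WT2 summit (added after the data were seen) and 23.7% to 36.9% with 1 library left out. Without WT replicate 1 it was 23.7%. For distal sites with ETS1 it was 38.4%, 50.4% and 86.0% under the summit rule, the ETS1 distance and the equal number, 53.8% in both, 64.4% in at least 1, 60.7% with the WT2 summit and 50.7% to 59.6% with 1 library left out. The share of WT1 peaks found in DKO was 33.9% at the stricter q, 33.7% beyond 5000 bp, 38.4% with the summit rule, 30.8% without ETS1 within 1000 bp, 70.9% with an equal number and 23.7% to 33.0% with 1 library left out. In the order beyond 5000 bp, summit rule, no ETS1 within 1000 bp, equal number and both WT libraries, the share with IRF8 was 1.80%, 0.225%, 2.48%, 1.61% and 1.01% (1.38% to 1.61% with 1 library left out), with PAX5 0.132%, 0.0250%, 0.173%, 0.0670% and 0% (0.0336% to 0.0671%) and with OCT2 0.571%, 0.274%, 0.577%, 0.201% and 0.302% (0.336% to 0.403%). Sites with IRF8 were called in DKO in 45.8% at the stricter q, 45.1% beyond 5000 bp, 66.7% with an equal number and 38.0% to 42.4% with 1 library left out. Sites without IRF8 were called in 37.5%, 37.6%, 43.2%, 34.9% and 79.4% under the stricter q, the distance, the summit rule, the ETS1 distance and the equal number, and in 23.5% to 36.9% with 1 library left out. Sites with PAX5 were called in 50% with an equal number and in 50% to 100% with 1 library left out. TGGGAA was in 22.0% of windows of 100 bp to each side and 13.6% at WT2 summits, and AGGAAG in 26.2% of the wider windows. The study gives a range and an average of mapped reads over its samples, but not the depth of each library. A difference in depth between genotypes and a difference in IKAROS binding therefore cannot be told apart here.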
